A study of Mus musculus with 8 samples.

Results

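The genes described here are 4 cytokines of the interleukin 6 (IL-6) and interleukin 10 (IL-10) systems (Il6, Il10, Osm and Lif), 4 receptor chains (Il6ra, Il6st, Il10ra and Il10rb) and the transcription factor gene Stat3. They were chosen by name, and every probe set whose single gene symbol was one of the 9 was taken. Each gene had 1 probe set, so they were 9 of 22180 genes and 9 of 23521 probe sets with a single gene symbol, and all 9 passed the filter on dim probe sets that left 14002 for testing.

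The RNA came from mouse neutrophils recruited to an air pouch by lipopolysaccharide (LPS), a bacterial product that activates Toll-like receptor signalling, and was hybridised to Affymetrix Gene 2.0 ST arrays. The series concerns the small GTPase Arf6 in neutrophil metabolism and effector functions. The conditional knockout (cKO) mice had the genotype flox+/+Cre+/+ for Arf6 (3 arrays). The Cre control mice were flox-/-Cre+/+ (2 arrays) and the flox control mice flox+/+Cre-/- (3 arrays), so each control lacked a different element of the cKO. All groups received LPS, and none was left without it. Each array held the RNA of 1 pool of 5 mice, whose neutrophils had been enriched by negative selection to 98% Ly6G positive cells, per the series' design text. The sources used here name neither the promoter that drives Cre nor the ages of the mice. Values are log2 intensities, on which a difference of 1 means a doubling, and tests are from limma with p adjusted over all probe sets tested, at a threshold of 0.05.

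IL-6, oncostatin M (OSM) and leukemia inhibitory factor (LIF) signal through receptor complexes that share the chain gp130, encoded by Il6st. IL-10 binds a receptor made of the chains encoded by Il10ra and Il10rb. Both routes activate Janus kinases and the transcription factor STAT3. IL-6 is a main inducer of the acute phase response, and IL-10 restrains the production of inflammatory cytokines by myeloid cells. Neutrophils are a known source of OSM and shed the IL-6 receptor alpha chain, which can then serve cells that carry gp130 alone.

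On one probe set the level of Arf6 set the arrays labelled cKO apart from the controls. It averaged 6.25 in the cKO, 7.82 in the Cre control and 8.02 in the flox control (adjusted p = 0.0122 against both controls). This level could not tell the 2 control genotypes apart, since the Cre controls (7.79 and 7.86) lay inside the flox control range (7.68 to 8.2). The other Arf6 probe set averaged 6.29 in the cKO, 6.33 in the Cre control and 6.55 in the flox control. Array medians ranged from 5.41 to 5.48, and correlations between arrays across probe sets from 0.977 to 0.992. Markers of neutrophils were high, with S100a8 between 13.1 and 13.36 and the receptor gene Csf3r between 13.23 and 13.46. The granule gene Camp, a product of earlier stages of maturation, read 5.15 to 6.7. Macrophage and monocyte markers were measurable in all arrays, with Csf1r between 10.3 and 10.57. Below the median of all values (5.45) in every array were 2 of 4 B cell markers (Ms4a1 and Cd79a) and 4 of 5 mast cell and basophil markers. Of 4 eosinophil markers 1 (Epx) was below it in every array. Siglecf (7.72 to 9), Ccr3 (7.71 to 9.29) and Prg2 (5.53 to 6.82) were above it in every array. Of 7 fibroblast and lining cell probe sets 3 were below it in every array, while Col1a1 read 7.32 to 9.09. Sex-linked transcripts set cKO replicate 1 (Eif2s3y 4.08, at least 8.66 elsewhere) and flox control replicate 1 (Xist 5.46, at least 7.84 elsewhere) apart. Results are therefore also given without these 2 pools where that changed the direction or moved a value by over 1.5 times. In pooled cells, fewer cells of a type and less RNA per cell cannot be told apart.

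None of the 9 genes passed the threshold in any of the 4 comparisons. Against both controls, where 0.00714% of all probe sets passed, an unadjusted p under 0.05 was reached in limma by 4 of the 9, compared with 9.52% of all probe sets tested. These were Il6, Il10 and Il10ra, which read lower in the cKO (4.26% of all probe sets), and Osm, which read higher (5.26%). Of the 9 genes 7 had a log2 fold change below 0, against 46.6% of all probe sets. The median log2 fold change was -0.09 over the 9 genes and 0.01 over all probe sets.

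Il6 encodes the cytokine that gives the family its name (gene identifier 16193, chromosome 5, probe set 17435725). It read 7.57, 6.59 and 7.32 in the cKO, against 8.13 and 8.51 in the Cre control and 7.3, 7.83 and 7.48 in the flox control. Both Cre controls lay above all other arrays, while the cKO overlapped the flox control and cKO replicate 2 was the lowest of the 8. Means were 7.16 ± 0.51 in the cKO (SD, n = 3), 8.32 ± 0.27 in the Cre control (n = 2) and 7.54 ± 0.27 in the flox control (n = 3). Against both controls the log2 fold change was -0.77 (SE 0.22, 95% interval -1.26 to -0.28, adjusted p = 0.362), which is 1.71-fold lower and did not pass. Without cKO replicate 2 it was -0.49 (adjusted p = 0.863). Against the Cre control alone it was -1.16 (SE 0.27, interval -1.78 to -0.55, adjusted p = 0.153), or 2.24-fold lower. Against the flox control it was -0.38 (SE 0.24, interval -0.93 to 0.17, adjusted p = 0.728). That last value was -0.1 without cKO replicate 2, -0.23 without flox control replicate 2, -0.58 without cKO replicate 1 and -0.7 without the 2 pools set apart by sex-linked transcripts. Between the controls, the log2 fold change of Il6 in the Cre control over the flox control was 0.78 (SE 0.27, interval 0.17 to 1.4, adjusted p = 0.221), which did not pass either. Macrophage and monocyte markers (10 measured of 11 listed, none below the median of all values in every array) had a mean level of 8.82 to 9.03 in the cKO, 9.1 to 9.15 in the Cre control and 8.67 to 9.03 in the flox control. Their part in the Il6 difference was not tested.

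The promoter of Il6 is shown because this gene had the largest difference of the 9 against both controls, and it carries letters that match several factors of the LPS response. The window runs from 250 bases before to 50 bases after the gene start in the RefSeq annotation of GRCm38.p6 (chr5:30012864-30013163, + strand). Capitals mark matches, on either strand, to the NF-kB core (GGGA, any 4 bases, CC), the AP-1 site TGANTCA, the CRE core TGACG and the C/EBP site TTGCNNAA.
Il6: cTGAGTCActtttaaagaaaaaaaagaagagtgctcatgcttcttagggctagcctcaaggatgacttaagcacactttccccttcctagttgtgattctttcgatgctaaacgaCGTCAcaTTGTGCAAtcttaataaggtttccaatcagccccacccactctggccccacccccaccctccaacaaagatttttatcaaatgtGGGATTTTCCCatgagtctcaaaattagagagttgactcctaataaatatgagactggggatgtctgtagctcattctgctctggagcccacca
In order, the capitals are an AP-1 match (TGAGTCA) that starts 249 bases before the gene start, a CRE core on the opposite strand at 135, a C/EBP match on the opposite strand at 128, and NF-kB matches at 44 and 43 bases. The 2 NF-kB matches overlap, one on each strand. Of all 32851 promoters in the table, 20.7% held the NF-kB letters, 7.81% the AP-1 letters, 20.8% the CRE core and 10.8% the C/EBP letters. The STAT core TTCNNNGAA (8.3% of promoters) and the TATA box TATAAA (13.6%) were also searched and had no match in this window. The matches describe letters only.

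Il10 encodes the cytokine that limits inflammatory output of myeloid cells (gene identifier 16153, chromosome 1, probe set 17216990). It read 7.35, 7.29 and 7.8 in the cKO, against 8.53 and 7.85 in the Cre control and 7.65, 7.95 and 7.97 in the flox control. The lowest arrays of the 8 were cKO replicates 1 and 2, and Cre control replicate 1 was the highest. The cKO lay below both Cre controls, by 0.048 at the nearest arrays, and overlapped the flox control. Means were 7.48 ± 0.28 in the cKO (SD, n = 3), 8.19 ± 0.48 in the Cre control (n = 2) and 7.86 ± 0.18 in the flox control (n = 3). Against both controls the log2 fold change was -0.54 (SE 0.18, interval -0.95 to -0.14, adjusted p = 0.406), or 1.46-fold lower. It was -0.71 against the Cre control (SE 0.23, adjusted p = 0.242) and -0.38 against the flox control (SE 0.2, interval -0.83 to 0.08, adjusted p = 0.676). Cre control replicate 1 weighed on the first 2 of these, which without it were -0.37 against both controls and -0.37 against the Cre control. Between the controls Il10 differed by 0.34 (SE 0.23, interval -0.17 to 0.84, adjusted p = 0.538), by 0.00 without Cre control replicate 1 and by 0.68 without Cre control replicate 2.

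**Figure D1:**
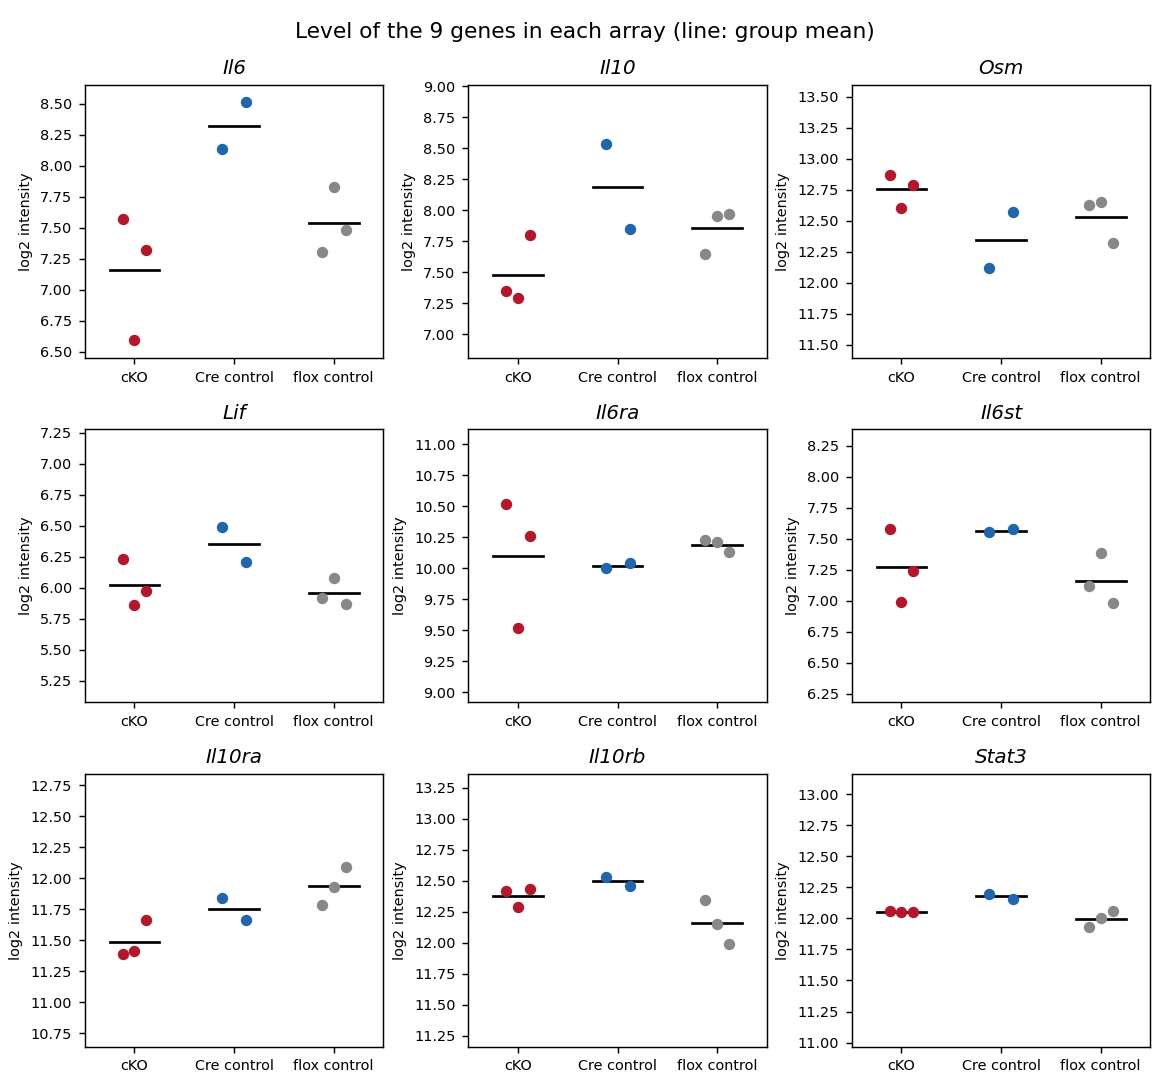
Log2 intensity of each of the 9 genes (vertical axis) in the 8 arrays by group (cKO, Cre control, flox control), with a line at the group mean and a point for each pool. Il6 reads 8.13 and 8.51 in the Cre controls and at most 7.83 in all other arrays, while Stat3 lies between 11.93 and 12.2 in all 8.

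Osm encodes oncostatin M (gene identifier 18413, chromosome 11, probe set 17246803). Its level was high in every array, at 12.87, 12.6 and 12.79 in the cKO, 12.12 and 12.57 in the Cre control and 12.63, 12.65 and 12.32 in the flox control. The 2 highest arrays were cKO pools, the third cKO pool lay below 2 flox controls, and Cre control replicate 1 was the lowest. The cKO mean was 12.76 ± 0.14 (SD, n = 3), against 12.34 ± 0.32 in the Cre control (n = 2) and 12.53 ± 0.19 in the flox control (n = 3). This was a log2 fold change against both controls of 0.32 (SE 0.14, adjusted p = 0.522), or 1.25-fold higher, and did not pass. Its interval ran from just above 0 to 0.63 (unadjusted p = 0.0477 in limma). It was 0.41 against the Cre control (SE 0.17, adjusted p = 0.338) and 0.22 against the flox control (SE 0.16, interval -0.13 to 0.57, adjusted p = 0.753). Without Cre control replicate 1 it was 0.2 against both controls and 0.19 against the Cre control. It was 0.64 against the Cre control without Cre control replicate 2, and 0.11 against the flox control without flox control replicate 3. Osm was thus the one ligand of the 4 whose difference from both controls lay above 0.

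Lif, which encodes leukemia inhibitory factor (gene identifier 16878, chromosome 11, probe set 17246810), is the next protein-coding gene to Osm on the chromosome. It was dim, at 6.23, 5.86 and 5.97 in the cKO, 6.49 and 6.21 in the Cre control and 5.92, 6.08 and 5.87 in the flox control. No array reached the 75th percentile of all values (6.64). Both Cre controls lay above all flox controls, and the cKO overlapped both groups. Its log2 fold change was -0.13 against both controls (SE 0.12, interval -0.41 to 0.15, adjusted p = 0.803), -0.33 against the Cre control (SE 0.15, adjusted p = 0.391) and 0.07 against the flox control (SE 0.14, interval -0.24 to 0.37, adjusted p = 0.939). The value against both controls was -0.24 without cKO replicate 1 or without the 2 pools set apart by sex-linked transcripts, -0.2 without Cre control replicate 2, -0.06 without Cre control replicate 1 and -0.05 without cKO replicate 2. The value against the Cre control was -0.19 without Cre control replicate 1, and that against the flox control turned to -0.04 without cKO replicate 1 and -0.06 without the 2 pools set apart by sex-linked transcripts. The Lif promoter (GRCm38.p6, chr11:4257318-4257617, + strand) is shown as the other ligand promoter that the RefSeq table holds. Capitals again mark matches to the same motifs.
Lif: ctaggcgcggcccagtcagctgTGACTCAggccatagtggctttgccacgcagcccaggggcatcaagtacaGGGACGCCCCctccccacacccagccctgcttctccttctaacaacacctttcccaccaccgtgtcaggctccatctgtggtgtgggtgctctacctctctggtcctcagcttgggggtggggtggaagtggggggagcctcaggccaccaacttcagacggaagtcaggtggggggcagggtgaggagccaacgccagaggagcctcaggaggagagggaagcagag
It held an AP-1 match (TGACTCA) at 228 bases before the gene start and an NF-kB match (GGGACGCCCC) at 178 bases. The RefSeq table held promoters for 5 of the 9 genes. Of the others, Il6ra had an NF-kB match (GGGAGGGGCC) at 224 bases and a CRE core at 236 bases, and Il6st and Stat3 had no match to the 6 motifs in this window.

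Il6ra encodes the alpha chain that binds IL-6 (gene identifier 16194, chromosome 3, probe set 17407138). It read 10.52, 9.52 and 10.26 in the cKO, against 10 and 10.04 in the Cre control and 10.23, 10.21 and 10.13 in the flox control. The cKO pools held both the highest and the lowest array of the 8, and the 5 controls fell between them. Means were 10.1 ± 0.52 in the cKO (SD, n = 3), 10.02 ± 0.03 in the Cre control (n = 2) and 10.19 ± 0.05 in the flox control (n = 3). Against both controls the log2 fold change was -0.01 (SE 0.2, interval -0.44 to 0.43, adjusted p = 0.996). Without cKO replicate 2 it was 0.28, and without cKO replicate 1 it was -0.22, so the direction rested on single pools. Against the flox control it was -0.09 (SE 0.22, adjusted p = 0.948), and 0.2 without cKO replicate 2. Against the Cre control it was 0.08 (SE 0.24, adjusted p = 0.937), and -0.13 without cKO replicate 1.

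Il6st encodes gp130, the chain shared by the IL-6 family (gene identifier 16195, chromosome 13, probe set 17289889). It read 7.58, 6.99 and 7.24 in the cKO, 7.55 and 7.58 in the Cre control and 7.12, 7.38 and 6.98 in the flox control. The Cre controls lay above all flox controls, and the cKO spread over nearly the whole range of both. The log2 fold change was -0.09 against both controls (SE 0.15, interval -0.43 to 0.24, adjusted p = 0.909), -0.3 against the Cre control (SE 0.19, adjusted p = 0.535) and 0.11 against the flox control (SE 0.17, adjusted p = 0.906). Without cKO replicate 2 the first became 0.05 and the second -0.16. Without cKO replicate 1 the last became -0.04, and without the 2 pools set apart by sex-linked transcripts -0.06.

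Il10ra encodes the chain that binds IL-10 and sets which cells respond to it (gene identifier 16154, chromosome 9, probe set 17526492). It read 11.39, 11.41 and 11.66 in the cKO, against 11.84 and 11.66 in the Cre control and 11.78, 11.93 and 12.09 in the flox control. All 3 cKO arrays lay below all 5 controls, the single gene of the 9 for which this held, although cKO replicate 3 and Cre control replicate 2 were only 0.001 apart. Among all probe sets 4.36% did not overlap in this comparison, and 2.25% had the cKO below all controls. Means were 11.49 ± 0.15 in the cKO (SD, n = 3), 11.75 ± 0.13 in the Cre control (n = 2) and 11.93 ± 0.15 in the flox control (n = 3). The log2 fold change against both controls was -0.36 (SE 0.12, interval -0.62 to -0.09, adjusted p = 0.404), or 1.28-fold lower. With 3 against 5 arrays there are 56 splits, and the two-sided exact permutation test gave its smallest possible value, p = 0.0179, which was 0.681 after adjustment over all probe sets. That minimum can be reached only by groups that do not overlap. The same exact test gave p = 0.143 for Il6, 0.0536 for Il10 and 0.125 for Osm. It compared the cKO mean with the mean of the 5 control arrays together and did not separate the 2 control genotypes. The limma value against both controls instead averages the 2 control group means. Against the flox control the log2 fold change was -0.45 (SE 0.13, interval -0.74 to -0.15, adjusted p = 0.395), with the nearest arrays 0.117 apart. Against the Cre control it was -0.27 (SE 0.15, interval -0.59 to 0.06, adjusted p = 0.478), and -0.18 without Cre control replicate 1. Over every array left out in turn, the value against both controls stayed between -0.44 and -0.31.

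Il10rb encodes the second chain of the IL-10 receptor, which also serves other cytokines of the IL-10 family (gene identifier 16155, chromosome 16, probe set 17327054). It was high, at 12.42, 12.29 and 12.43 in the cKO, 12.53 and 12.46 in the Cre control and 12.34, 12.15 and 11.99 in the flox control. The cKO lay just below both Cre controls and, apart from cKO replicate 2, above all flox controls. Unlike Il10ra, it gave log2 fold changes of either sign: 0.05 against both controls (SE 0.11, interval -0.19 to 0.3, adjusted p = 0.932), -0.12 against the Cre control (SE 0.14, adjusted p = 0.784) and 0.22 against the flox control (SE 0.12, adjusted p = 0.682). The last was 0.14 without flox control replicate 3.

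Stat3 encodes the transcription factor that both receptor systems activate (gene identifier 20848, chromosome 11, probe set 17269717). It read 12.06, 12.05 and 12.05 in the cKO, 12.2 and 12.16 in the Cre control and 11.93, 12 and 12.06 in the flox control. The cKO lay inside the range of the controls, below both Cre controls and at the upper end of the flox controls. Its log2 fold change was -0.04 against both controls (SE 0.09, interval -0.24 to 0.17, adjusted p = 0.948), -0.13 against the Cre control (SE 0.11, adjusted p = 0.693) and 0.06 against the flox control (SE 0.1, adjusted p = 0.928).  Stat3 was among the steadiest transcripts, and 0.686% of tested probe sets had a smaller spread within groups (pooled SD 0.04). Il6 was among the most variable, with a pooled SD of 0.38 that exceeded that of 94.3% of tested probe sets.

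**Figure D2:**
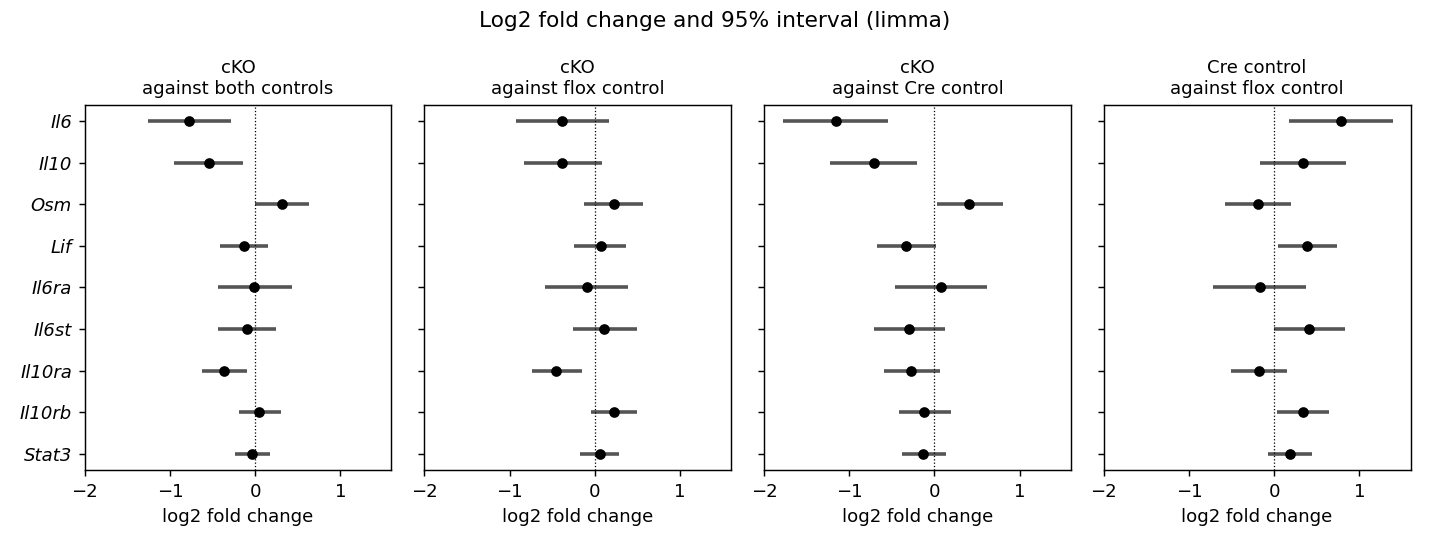
Log2 fold change (horizontal axis, points) with its 95% interval from limma (bars) for the 9 genes in the 4 comparisons. The intervals of Il6, Il10 and Il10ra lie below 0 against both controls, and that of Il10ra also against the flox control. The interval of Osm against both controls lies just above 0 (unadjusted p = 0.0477 in limma). Relative to the Cre control those of Il6 and Il10 lie below 0 and that of Osm above, between the controls those of Il6, Lif and Il10rb lie above 0, and no gene passed the threshold after adjustment.

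Set against the flox control, the cKO carries the same floxed allele and adds Cre. Here 0.0429% of probe sets passed, and 1 of the 9 genes, Il10ra, had an unadjusted p under 0.05 in limma, compared with 8.26% of all probe sets (3.98% lower and 4.28% higher). Il10ra was also the single gene of the 9 whose arrays did not overlap, as held for 12.2% of all probe sets (6.31% lower and 5.93% higher). The log2 fold change was below 0 for 4 of the 9 genes, against 47.6% of all probe sets, and its median over the 9 was 0.06. A second gene joined Il10ra under an unadjusted p of 0.05 without the 2 pools set apart by sex-linked transcripts (Il6), without cKO replicate 1 (Il6), cKO replicate 3 (Il10) or flox control replicate 1 (Il10rb), and with quantile scaling or array weights (Il10rb). In the same comparison the mean level of the T and NK cell markers was 5.96 to 6.06 in the cKO and 5.65 to 5.81 in the flox control. That of the dendritic cell markers was 7.82 to 8.09 in the cKO and 7.54 to 7.81 in the flox control. Of each list 2 of 6 tested probe sets were higher at an unadjusted p under 0.05, none passed, and the part of these markers in the values of the 9 genes was not tested.

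Set against the Cre control, the cKO shares Cre and adds the floxed allele. The mean level of the neutrophil markers was 11.71 to 11.92 in the cKO and 11.61 to 11.62 in the Cre control. By unadjusted p under 0.05, 1 of 11 neutrophil probe sets was higher and 2 of 10 macrophage and monocyte probe sets were lower in the cKO. No tested marker of the other cell types reached that level, no marker passed, and their part in the values of the 9 genes was not tested. Of the 9 genes none passed (0.0714% of all probe sets did), and 3 had an unadjusted p under 0.05 in limma (Il6, Il10 and Osm), compared with 13.5% of all probe sets (5.96% lower and 7.51% higher). The arrays did not overlap for 6 genes, with Il6, Il10, Il10ra, Il10rb and Stat3 lower and Osm higher in the cKO, where 34.4% of all probe sets did not overlap in groups of 3 and 2 (16% lower and 18.5% higher). Apart from Il6, with 0.565 between the nearest arrays, these gaps were at most 0.098. The log2 fold change was below 0 for 7 of the 9 genes, against 48% of all probe sets, and its median over the 9 was -0.27. Without Cre control replicate 1 only Il6 kept an unadjusted p under 0.05.

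Between the 2 control lines, where 0.486% of probe sets passed, none of the 9 genes did, and 3 had an unadjusted p under 0.05 in limma, compared with 14.7% of all probe sets (7.86% lower and 6.85% higher). These were Il6 (0.78), Lif (0.39, SE 0.15, interval 0.05 to 0.74, adjusted p = 0.274) and Il10rb (0.34, SE 0.14, interval 0.03 to 0.64, adjusted p = 0.288), all higher in the Cre control. The arrays did not overlap for 6 genes, with Il6, Lif, Il6st, Il10rb and Stat3 higher and Il6ra lower in the Cre control, against 32.7% of all probe sets (17.4% lower and 15.3% higher). Il6st differed by 0.41 (SE 0.19, adjusted p = 0.342) and Stat3 by 0.19 (SE 0.11, adjusted p = 0.492). The median over the 9 genes was 0.34 and over all probe sets 0.00, with 3 of the 9 genes and 50.8% of all probe sets below 0. Without Cre control replicate 1 or flox control replicate 3 only Il6 kept an unadjusted p under 0.05, and without flox control replicate 1 only Il10rb did. No marker probe set of another cell type or of neutrophils passed in this comparison. By unadjusted p under 0.05, 3 of 10 macrophage and monocyte probe sets and 4 of 6 tested T and NK cell probe sets were higher in the Cre control. So were 2 of 6 dendritic cell and 1 of 3 endothelial probe sets, while 4 of 11 neutrophil probe sets were lower. The mean level of the neutrophil markers was 11.61 to 11.62 in the Cre control and 11.84 to 12.04 in the flox control. That of the T and NK cell markers was 6.04 to 6.31 in the Cre control and 5.65 to 5.81 in the flox control, with Cd4 and Klrb1c below the median of all values in every array. For the dendritic cell markers it was 7.86 to 7.97 in the Cre control and 7.54 to 7.81 in the flox control. The part of these markers in the differences of the cytokine genes was not tested. The comparisons share arrays: this one shares the flox control arrays with one comparison of the cKO and the Cre control arrays with the other.

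Single pools stood out across the 9 genes. The lowest of the 8 arrays was cKO replicate 2 for 4 genes (Il6, Il10, Lif and Il6ra), where it was the lowest for 14.2% of all tested probe sets. The highest array was Cre control replicate 1 for 4 genes (Il10, Lif, Il10rb and Stat3), where it was the highest for 13.1%. Against both controls, leaving out cKO replicate 1 or Cre control replicate 1 left only Il6 with an unadjusted p under 0.05.

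**Figure D3:**
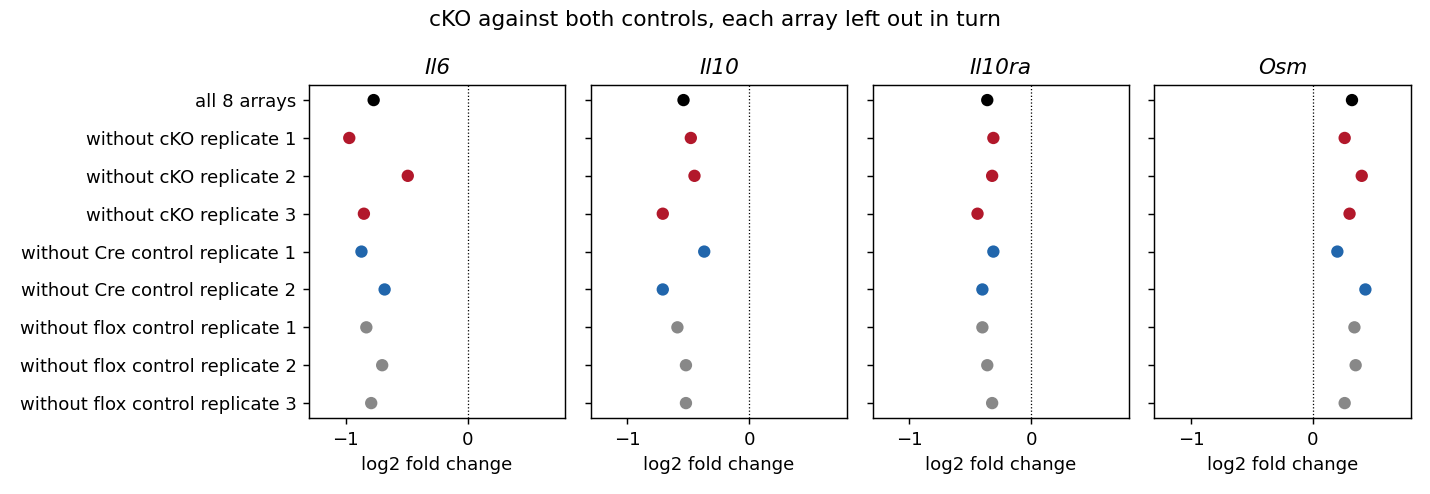
Log2 fold change of Il6, Il10, Il10ra and Osm in the cKO against both controls (horizontal axis) with all 8 arrays and with each array left out in turn (rows). The values of Il6 range from -0.97 to -0.49 and those of Il10ra from -0.44 to -0.31, and no value crosses 0.

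Other ligands and receptors of the 2 families were taken from lists of genes and counted in the same fit. Of 12 other IL-6 family genes 6 were tested, with 7 probe sets, and none passed. Against both controls 5 probe sets lay below 0 and 2 above (median -0.12, against 0.01 over all probe sets), where 46.6% of all lay below 0. Both Ebi3 probe sets were lower at an unadjusted p under 0.05, as were 4.26% of all probe sets. With the filter at the 75th percentile, which leaves fewer of the listed genes, the list's median was -0.48. Ebi3 and Il27 encode the subunits of IL-27, a cytokine whose receptor uses gp130. Ebi3 gave log2 fold changes of -0.49 (SE 0.17, adjusted p = 0.423) and -0.48 (SE 0.19, adjusted p = 0.463) on its 2 probe sets. The first was dim (5.99 to 7.07) and the second bright (11.15 to 12.44), and cKO replicate 2 was the lowest array on each. Il27 read 9.52, 8.59 and 10.21 in the cKO, against 10.69 and 10.52 in the Cre control and 10.43, 9.77 and 9.16 in the flox control. Its log2 fold change was -0.76 against both controls (SE 0.36, adjusted p = 0.548). Like Il6, Il27 was higher in both Cre controls than in any other array and overlapped between the cKO and the flox control. For both genes cKO replicate 2 was the lowest of the 8 arrays. The receptor gene Lifr was dim (5 to 6.05 over the 8 arrays) and gave a log2 fold change against both controls of 0.25 (SE 0.18, adjusted p = 0.719). Osmr, which encodes the OSM receptor chain, was not among the genes tested.

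Of 11 other IL-10 family genes 7 were tested and none passed. Of their probe sets 6 lay below 0 and 1 above against both controls (median -0.11), where 46.6% of all probe sets lay below 0. The receptor chain gene Il20rb gave -0.22 (SE 0.09, adjusted p = 0.516), the cytokine gene Il19 -0.2 (SE 0.11, adjusted p = 0.626) and Ifnl2, which encodes a lambda interferon, -0.11 (SE 0.11, adjusted p = 0.807). Il19 was dim, at 5.88 to 6.4, below the 75th percentile of all values (6.64) in every array, and Il20rb lay near that percentile (6.46 to 6.78). The 3 cKO arrays of Il20rb, at 6.46, 6.49 and 6.61, lay below the lowest control at 6.71, as held for 2.25% of all probe sets.

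Janus kinases, STATs and their brakes were tested with 26 probe sets of 23 genes. None passed, and 7 had an unadjusted p under 0.05 against both controls, all lower, where 4.26% of all probe sets were lower at that level. The median was -0.09, with 18 probe sets below 0 and 8 above, where 46.6% of all probe sets lay below 0. Cish, a cytokine-induced inhibitor of STAT5 signalling, read 9.87, 9.34 and 10.23 in the cKO, against 10.52 and 10.4 in the Cre control and 10.58, 10.38 and 10.64 in the flox control. All cKO arrays lay below all controls, as held for 2.25% of all probe sets. The lowest was cKO replicate 2 (9.34), and cKO replicate 3 (10.23) lay nearest to the lowest control (10.38). The log2 fold change of Cish was -0.68 (SE 0.18, adjusted p = 0.341), and a second Cish probe set gave -0.65 (SE 0.22, adjusted p = 0.402) with overlapping arrays. Tyk2, a kinase of the IL-10 receptor, gave -0.46 (SE 0.14, adjusted p = 0.369), and the phosphatase gene Ptpn1 -0.36 (SE 0.12, adjusted p = 0.417). For Ptpn1 cKO replicate 2 was the lowest array (10.36), and for Tyk2 cKO replicates 1 and 2 both read 8.46.

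STAT3 target genes, all 18 of them measured with 21 probe sets, had 17 below 0 and 4 above against both controls (median -0.19). Over all probe sets 46.6% lay below 0. Without cKO replicate 2 the list's median was -0.08. None passed, and 5 probe sets were lower and 2 higher at an unadjusted p under 0.05, where 4.26% of all probe sets were lower and 5.26% higher. Socs3 encodes the feedback inhibitor that STAT3 induces and that blocks signalling from gp130. Its brighter probe set read 12.1, 11.64 and 12.17 in the cKO, against 12.28 and 12.22 in the Cre control and 12.36, 12.44 and 12.37 in the flox control. The cKO lay below all controls, with cKO replicate 2 the lowest, and gave a log2 fold change of -0.35 (SE 0.13, adjusted p = 0.447). The other Socs3 probe set gave -0.52 (SE 0.21, adjusted p = 0.486) with overlapping arrays. The acute phase gene Saa3 gave -0.87 (SE 0.26, adjusted p = 0.369) and one probe set of the kinase gene Pim1 -0.52 (SE 0.12, adjusted p = 0.289). Both had all cKO arrays below all controls, as did 2.25% of all probe sets. The lowest array was cKO replicate 2 for each of them (10.79 and 5.63). That Pim1 probe set was dim (5.63 to 6.39 over the 8 arrays), and the bright one (13.21 to 13.51) gave -0.08 (SE 0.1, adjusted p = 0.859) with overlapping arrays. Against the flox control the list's median was -0.23, with 18 of 21 below 0 (47.6% of all probe sets). Against the Cre control it was -0.07, with 14 of 21 below 0 (48% of all probe sets).

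**Figure D4:**
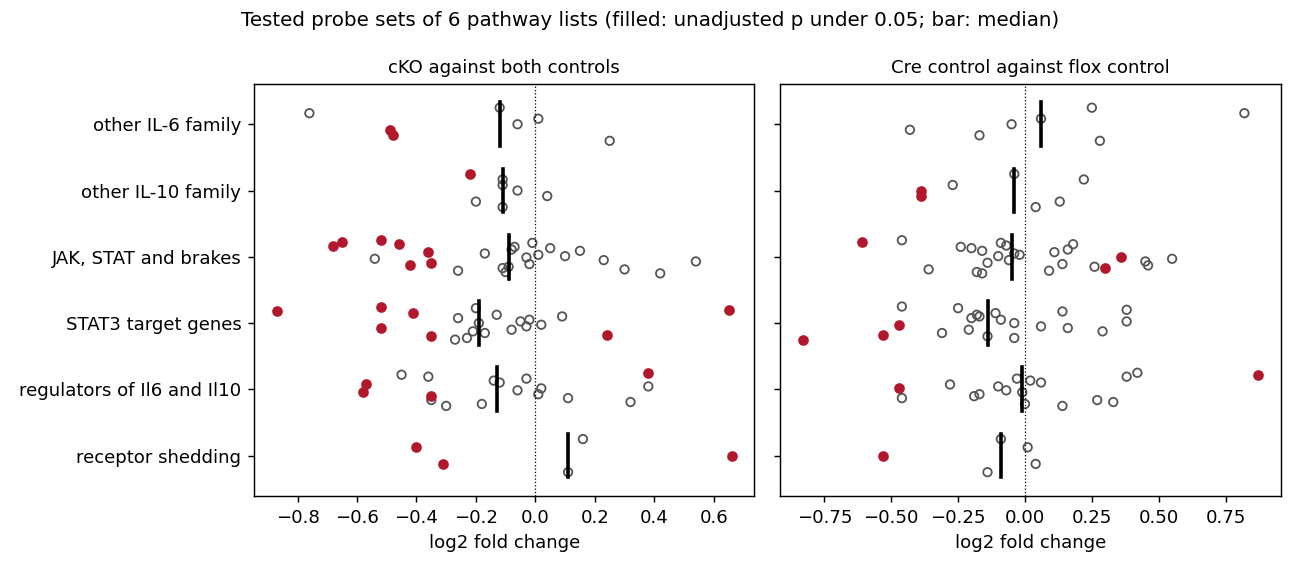
Log2 fold change (horizontal axis) of each tested probe set in 6 gene lists (rows) in 2 comparisons, cKO against both controls and Cre control against flox control, with filled points at an unadjusted p under 0.05 and bars at list medians. In the first comparison 5 of the 6 medians lie below 0 and none of the points passed after adjustment. The exception, receptor shedding (0.11), turns to -0.07 with the filter at the 75th percentile.

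Regulators of Il6 and Il10 expression were tested with 18 probe sets of 16 genes, and none passed. Against both controls 12 lay below 0 and 6 above (median -0.13), with 3 lower and 1 higher at an unadjusted p under 0.05. Over all probe sets 46.6% lay below 0, 4.26% were lower and 5.26% higher by the same measures. Zc3h12a encodes Regnase-1, an RNase that degrades Il6 mRNA. It read 10.58, 10.14 and 10.88 in the cKO, against 11.04 and 10.89 in the Cre control and 11.26, 11.23 and 11.25 in the flox control. All cKO arrays lay below all controls, as 2.25% of all probe sets did, with a log2 fold change of -0.57 (SE 0.16, adjusted p = 0.343). The lowest was cKO replicate 2 (10.14), and cKO replicate 3 (10.88) lay next to Cre control replicate 2 (10.89). Map3k8, a kinase that carries the LPS signal to ERK, gave -0.58 (SE 0.19, adjusted p = 0.403), and Nfkbiz, a nuclear cofactor needed for Il6 induction in macrophages, -0.35 (SE 0.13, adjusted p = 0.435). The lowest array was cKO replicate 2 for Map3k8 (10.88) and cKO replicate 1 for Nfkbiz (12.19).

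Of 6 genes of receptor shedding 5 were tested, and none passed. Adam17 encodes the protease that cleaves the IL-6 receptor from neutrophils. It read 10.68, 11.16 and 10.87 in the cKO, against 9.95 and 10.01 in the Cre control and 10.36, 10.57 and 10.6 in the flox control. All cKO arrays lay above all controls, where 2.11% of all probe sets did so. The log2 fold change was 0.66 against both controls (SE 0.13, interval 0.37 to 0.95, adjusted p = 0.239), or 1.58-fold higher. It was 0.92 against the Cre control (SE 0.16, adjusted p = 0.0825) and 0.39 against the flox control (SE 0.14, adjusted p = 0.528), and the Cre control over the flox control gave -0.53 (SE 0.16, adjusted p = 0.163). Furin, which encodes a protease that matures ADAM17, gave -0.4 (SE 0.15, adjusted p = 0.442), and Rhbdf2, whose product iRhom2 carries ADAM17 to the cell surface, -0.31 (SE 0.12, adjusted p = 0.471). The lowest array was cKO replicate 2 for Furin (11.69) and for Rhbdf2 (11.04).

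The probe sets most like Il6 over the 8 arrays, by Pearson correlation, were those of Ilrun (0.953), the histamine receptor gene Hrh2 (0.942), the ceramidase gene Acer3 (0.941), Ccdc6 (0.94) and the interferon-responsive gene Epsti1 (0.934). Those most like Il10 were Col9a3 (0.971), Chrna9 (0.965), Ntng2 (0.963), Kif1a (0.963) and Plscr2 (0.957). Genes with predicted, RIKEN, microRNA or small nucleolar and Cajal body RNA symbols were left out of this search. Among the remaining tested probe sets 23 correlated with Il6 above 0.9, and 28 with Il10. The arrays share groups and normalization, so these values describe likeness over 8 arrays and carry no test.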

How the data were processed

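RNA of 8 neutrophil pools was measured, 1 array per pool. The deposited values are log2 probe set intensities that the authors background-subtracted and normalized by Robust Multiarray Analysis (Affymetrix Expression Console), per the series' design text. The sources used here give no software version. Nothing was rescaled. The design text states 3 pools of 5 mice per genotype. The series holds 8 arrays, 2 of them Cre controls, and all 8 were used. Groups follow the titles and genotype labels. The source field names other genotypes and was not used.

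Of 34472 probe sets, 23521 had 1 gene symbol in the platform annotation, 1814 several and 9137 none. Symbols were updated by gene identifier with RefSeq (GRCm38.p6). Probe sets above the median of all values (5.45) in at least 2 arrays were tested with limma 3.58.1 in R 4.3.3, in 1 fit of 3 groups over all 8 arrays (two-sided, Benjamini-Hochberg over 14002 probe sets, threshold 0.05). The script was tested on simulated data. The 9 genes, the lists and the motifs were chosen with earlier results of these data known. All 9 genes are named, with up to 3 genes per list by smallest p against both controls. So are the 5 probe sets, of those searched, most correlated with Il6 and with Il10. Alternatives were other filters, scalings, variance models, fits and arrays left out. The number of arrays limits the precision.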

Additional observations from a re-analysis of the deposited data

How the results depend on the processing

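None of the 9 genes passed in any of the 4 comparisons under any alternative run. Adjusted p for Il6 against both controls ranged from 0.183 to 0.964, for Il10 from 0.141 to 0.964, and for Il10ra from 0.172 to 0.964. The lowest adjusted p of the 9 genes in any setting was 0.0663, for Il6 against the Cre control. The number of all probe sets that passed was less stable, from 0 to 31 against both controls (1 in the report), 0 to 12 against the flox control (6), 0 to 145 against the Cre control (10) and 0 to 819 between the controls (68). Log2 fold changes of Il6, Il10, Il10ra and Osm against both controls kept their direction in all 20 alternatives each.

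Directions turned mostly for values near 0, and the cause was not tested. Between the controls, Il10 (0.34) and Osm (-0.19) each turned in 1 setting, where the value of Il10 rounded to 0.00. Il6ra against both controls was 0.01 with arrays centred on their medians, 0.1 with array weights and -0.22 to 0.28 with an array left out, Stat3 against both controls was 0.01 with quantile scaling, and Il6ra against the flox control was 0.01 with array weights. With an array left out, the ranges were -0.25 to 0.05 for Il6st against both controls, -0.04 to 0.15 for Lif, -0.3 to 0.2 for Il6ra and -0.04 to 0.26 for Il6st against the flox control, -0.13 to 0.37 for Il6ra against the Cre control, and 0.00 to 0.68 for Il10 and -0.42 to 0.03 for Osm between the controls. With the 2 pools that stand apart in sex-linked transcripts left out Lif and Il6st were each -0.06 against the flox control and Il6ra -0.13 against the Cre control. With array weights 1 gene of receptor shedding (Adam17) passed against the Cre control. Between the controls the same setting gave 1 in the other IL-10 family (Ifnlr1), 3 STAT3 target genes (Cebpb, Ddit4 and Nfil3), 1 regulator (Cebpb) and 1 of receptor shedding (Adam17), and with an array left out 0 to 1 STAT3 target genes (Ddit4) passed. Of the medians of the 6 lists, 28 values moved by more than the spread between replicates and 428 did not. Receptor shedding, with 5 probe sets, changed sign against both controls, the flox control and the Cre control (-0.07, -0.09 and -0.06) with the filter at the 75th percentile, and was -0.03 against the flox control without flox control replicate 2. With a Cre control left out, the remaining one was assumed to vary like the other groups. With the filter at the 75th percentile Lif had no value. Averaging several probe sets per gene was not run, since each of the 9 genes had 1. No paired analysis was possible because the labels give no replicate numbers shared between groups.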
